A study of Homo sapiens with 38 samples.

Results

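Collagen genes were taken as the rows of the count table whose symbol is COL, a number, A and a number, which is the naming scheme of human collagen chains. The rule found 44 genes among the 43412 rows of the table, and all 44 passed the filter on low counts. They were followed in H9, an established human embryonic stem cell line, by RNA sequencing in 3 arms of cultures. In the first arm the cells received 10 µM CHIR99021, an inhibitor of the kinase GSK3 that stabilises beta-catenin, and were collected untreated and after 8, 16, 24, 48 and 72 h. In the second arm they received recombinant Wnt3a protein at 240 ng/ml and were collected untreated and after 8, 24, 48, 72, 96 and 120 h. The third arm used an H9 line with a stably integrated, doxycycline-regulated deltaN90 beta-catenin, a form truncated at its N terminus, induced with doxycycline at 1 µg/ml and collected at 0, 8, 16, 24, 48 and 72 h. All cultures were maintained on Geltrex in mTeSR1, seeded at full confluency on Matrigel and moved 16 h later to RPMI1640 with a B27 supplement lacking vitamin A, together with the treatment. No culture received the new medium alone at the later times, so each change below joins treatment, medium and time in culture, and these cannot be told apart. Matrigel and Geltrex are themselves basement membrane extracts, and the measurements are of RNA in the cells, not of protein in the matrix.

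Collagens are proteins built from alpha chains that wind into a triple helix, and most are secreted and assembled outside the cell. Fibrillar collagens (types I, II, III, V, XI, XXIV and XXVII) form the fibrils of connective tissue and cartilage, and fibril-associated collagens (such as types IX, XIV and XVI) sit on their surface. Type IV collagen forms the sheet-like network of basement membranes, type VI forms beaded filaments, type XVIII is a basement membrane collagen that carries heparan sulphate, and types XIII and XXIII are anchored in the cell membrane. In the early embryo, basement membrane collagen is laid down by epiblast and endoderm, and fibrillar collagen rises in mesoderm and its mesenchymal derivatives. Canonical WNT signalling, which acts through beta-catenin and the TCF/LEF factors, drives pluripotent cells towards the primitive streak, the source of mesoderm and endoderm.

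Each group held 2 libraries. The 2 columns for Wnt3a at 72 h were identical and were counted as 1 library, which left 37 libraries and made that group's spread an assumption taken from the other groups. The labels call the replicates biological but do not say what separated them, so p-values measure the spread between these libraries. Library totals ran from 2.45 M counts (untreated Wnt3a arm, replicate 1) to 65.7 M, with a median of 19.0 M. Ribosomal RNA took 60.3% of the counts in the induced beta-catenin library of 24 h replicate 1, 60.2% in that of 48 h replicate 2 and 34.0% in that of 0 h replicate 1, against a median of 5.13%. The share also differed by arm. In the induced line every library but 0 h replicate 2 (5.77%) held at least 14.3%. CHIR99021-arm libraries held 1.71% to 18.8%, and Wnt3a-arm libraries at most 4.94%. Comparisons between arms carry this difference as well. CTNNB1, the beta-catenin gene, stood at 652 and 750 CPM (a counts-per-million value scaled by TMM) in the uninduced line and between 1995 and 2908 at 8 to 72 h. AXIN2, a direct WNT target, went from 19.9 and 20.3 CPM to 409 and 422 after 72 h of CHIR99021 and from 24.1 and 25.3 to 339 and 402 after 72 h of induction. With Wnt3a AXIN2 stood at 60.9 and 63.0 CPM at 8 h, at 12.7 and 12.7 at 24 h and at 29.5 and 55.6 at 120 h. The 6 pluripotency genes summed to between 3862 and 4871 CPM in untreated cultures. Primitive streak and presomitic mesoderm genes (5 markers, among them T, MIXL1 and MSGN1) summed to at most 2.25 CPM untreated, to 495 and 513 at 48 h and 788 and 858 at 72 h of CHIR99021, and to 438 and 446 at 72 h of induction. In the Wnt3a arm they summed to 326 and 353 CPM at 48 h, of which MIXL1 was 324 and T 12.4. They summed to 21.0 and 27.6 CPM at 96 h and to 8.78 and 14.1 at 120 h of Wnt3a. At 120 h of Wnt3a 4 endoderm genes led by SOX17 reached 174 and 266 CPM. At that time 5 amnion and trophoblast genes led by GATA3 summed to 31.0 and 35.0 CPM. SOX17 was at 0 counts in the CHIR99021 cultures of 48 and 72 h. In bulk RNA, fewer cells of a type and less RNA per cell cannot be told apart.

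Type IV, type XVIII, fibrillar and type VI chains made up most of the collagen RNA of untreated cells. In untreated CHIR99021-arm cultures the type IV genes summed to 337 CPM, the fibrillar genes to 235 and the type VI genes to 213. Over the 6 untreated libraries the 10 collagen genes with the most counts held 79.9% of all collagen counts. Levels between genes are compared here as median CPM per kilobase, using the merged exon length of each gene in the GENCODE basic annotation. COL18A1 was highest at 43.9 CPM per kilobase, followed by COL6A1 at 32.8, COL6A2 at 19.0, COL1A2 at 17.3, COL9A3 at 16.8 and COL4A1 at 12.1. COL4A2, COL4A6 and COL4A5 stood at 7.75, 7.08 and 6.82, and the untreated libraries of COL4A6 (25.5 to 64.0 CPM) and COL4A5 (33.0 to 56.5 CPM) overlapped. COL1A1, which encodes the alpha 1 chain of type I collagen, stood at 6.70, below COL1A2, its alpha 2 partner. The lowest was COL3A1, the type III chain, with 0 to 0.654 CPM in the untreated libraries. An untreated median under 1 CPM was found for 11 members, and 15 members stayed under 5 CPM in every group.

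Summed over all members, collagen RNA stood higher at the late times of all 3 arms than before treatment. The 44 genes summed to 1315 and 1359 CPM in untreated CHIR99021-arm cultures, to a mean of 2479 ± 16.1 CPM (SD, n = 2) at 48 h and to 1828 ± 146 at 72 h. The induced line went from 1290 ± 98 CPM to 2427 ± 46.1 at 72 h. The Wnt3a arm went from 1082 ± 154 CPM to a mean of 3114 ± 268 at 96 h and 2825 ± 175 at 120 h. These sums are led by a few abundant genes, and the single-gene tests below show members moving in both directions. A gene is called higher or lower at a Benjamini-Hochberg adjusted p below 0.05 over the 24304 genes tested in edgeR's quasi-likelihood fit, and changes are on the log2 scale with standard errors.

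With CHIR99021 most of the members called in the first day were lower. At 8 h 1 member was called higher and 9 lower, a share of the 44 near the 20.9% of all genes called (9.19% higher and 11.7% lower). At 16 h the counts were 2 and 8 with 15.9% of all genes called (6.54% and 9.34%). At 24 h they were 2 and 7 with 14.5% (5.9% and 8.61%). At 48 h 13 members were higher and 15 lower, 63.6% of the collagen genes against 33.9% of all genes (15.7% higher and 18.1% lower). At 72 h 7 were higher and 8 lower, 34.1% against 24.9% (11.5% and 13.4%). The median change over the 44 members at 48 h was -0.16 and that over all genes 0.02. Among the 24 members that reached 10 CPM in some group, 12 were higher and 6 lower at 48 h. That set favours increases, since members such as COL3A1 reached 10 CPM only in treated groups where they were high. Its counts therefore say nothing on whether abundant members rose more often. The counts of the first day rest on single libraries: at 8 h they fell to between 3 and 6 calls and at 16 h to between 4 and 6, whichever of the 4 libraries was left out.

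Induced beta-catenin gave a similar order in time with more increases at 72 h than at 48 h. At 8 h 1 member was higher and 7 lower, a share of the 44 near the 18.7% of all genes called (10.7% higher and 8.01% lower). At 16 h the counts were 1 and 9 with 10.9% (6.23% and 4.69%), and at 24 h 6 and 10 with 12.8% (6.87% and 5.96%). By 48 h 9 were higher and 9 lower, 40.9% of the collagen genes against 21.3% of all genes (11.2% and 10.1%). By 72 h 14 were higher and 7 lower, 47.7% against 27.3% (13.6% and 13.6%). The early counts again turned on libraries. Leaving out 0 h replicate 2 left 5 calls at 8 h and 5 at 16 h, leaving out 16 h replicate 2 left 6 at 16 h, and at 24 h any left-out library brought the 16 calls down to between 8 and 10. Without the 4 libraries of low depth or high ribosomal share (untreated Wnt3a arm replicate 1, and the induced line's 0 h replicate 1, 24 h replicate 1 and 48 h replicate 2), 6 calls were left at 16 h, 4 at 24 h, 17 at 48 h and 19 at 72 h.

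With Wnt3a most called collagen genes were higher. Only COL2A1 was called at 8 h, as lower, with 3.45% of all genes called (2.28% higher and 1.18% lower), and the call was lost without either untreated library (adjusted p = 0.051 and 0.083 in edgeR) and without 8 h replicate 1 (0.25). At 24 h 11 were higher and 2 lower, with 20.2% of all genes called (9.32% and 10.9%), a total that fell to 6 without untreated replicate 1 and to 6 without 24 h replicate 2. Without the 4 doubted libraries it was 7. At 48 h 12 were higher and 6 lower, 40.9% against 16.1% of all genes (7.57% and 8.57%), and at 72 h 17 and 4, 47.7% against 16.4% (8.43% and 7.94%). The counts were 22 higher and 3 lower at 96 h, 56.8% against 39.9% of all genes (18.8% and 21%), and 20 and 4 at 120 h, 54.5% against 27.9% (12.2% and 15.6%). The median change over the 44 members was 0.83 at 96 h, while that over all genes was 0.07. COL17A1, COL20A1, COL4A4 and COL6A5 were called at no time against 0 h in any arm.

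**Figure D1:**
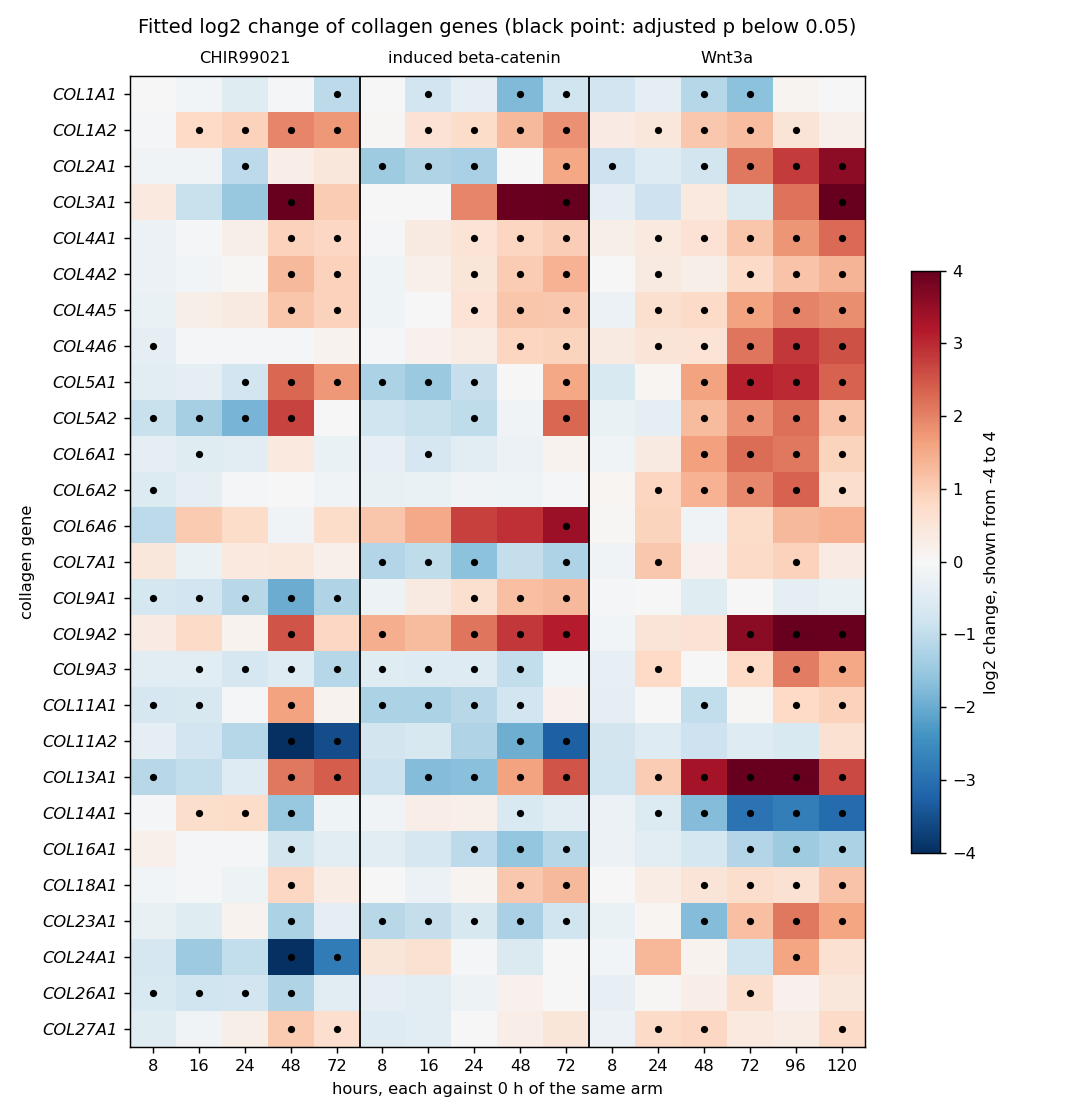
Log2 change against the untreated cultures of the same arm for 27 collagen genes, those with a mean of at least 10 CPM in a group and 3 others described for the size of their change, with genes in rows in numerical order, hours of treatment in columns for CHIR99021, induced beta-catenin and Wnt3a, and a black point where the adjusted p was below 0.05. COL4A1, COL4A2 and COL4A5 are called higher late in all 3 arms. COL6A1 and COL6A2 are called higher with Wnt3a, and in the other arms they are called lower at some early times and higher at none.

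Type IV genes were called in 1 direction only at these late times. Of the 6 genes, 3 were called higher and 0 lower at 48 h and at 72 h of CHIR99021, 4 and 0 at 48 h and at 72 h of induction, and 5 and 0 at 120 h of Wnt3a. Of all genes, 33.9% and 24.9% were called at 48 and 72 h of CHIR99021. The shares were 21.3% and 27.3% at 48 and 72 h of induction and 27.9% at 120 h of Wnt3a. The 6 type IV genes lie in 3 head-to-head pairs, in which the neighbours are transcribed away from each other from a shared stretch of DNA. The stretches of the abundant pairs are shown because neighbours with start sites this close differed in their changes in at least 1 arm. In RefSeq (GRCh38.p14), the start sites of COL4A1 (minus strand) and COL4A2 (plus strand) lie 127 bases apart on chromosome 13, and the 126 bases between them (chr13:110307158-110307283) are printed whole. The start sites of COL4A6 (minus strand) and COL4A5 (plus strand) lie 380 bases apart on the X chromosome, and 121 of the 379 bases between them (chrX:108439588-108439708) are printed. Both are given 5′ to 3′ on the plus strand, with capitals marking matches to CCAAT or its reverse complement ATTGG, and to CTTTGA or its reverse complement TCAAAG, the core of the TCF/LEF motif.
COL4A1 and COL4A2: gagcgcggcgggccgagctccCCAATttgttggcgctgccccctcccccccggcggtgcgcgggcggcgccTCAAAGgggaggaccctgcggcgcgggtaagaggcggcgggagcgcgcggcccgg
COL4A6 and COL4A5: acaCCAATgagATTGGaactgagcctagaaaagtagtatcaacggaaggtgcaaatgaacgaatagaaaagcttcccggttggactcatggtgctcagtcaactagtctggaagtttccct
The first stretch is 80.2% G and C and holds 1 match to each motif, and the second is 44.6% G and C and holds 2 CCAAT matches and no TCF/LEF core in the bases shown. Over the 35116 RefSeq promoter entries of 300 bases (250 before to 50 after a start site), 12.9% held the TCF/LEF core on either strand. Of the 44 entries of 32 collagen symbols 10 did (22.7%), where COL4A1 and COL4A2 share the same match. CCAAT was in 34.6% of all entries and in 14 of the 44 (31.8%), and TATAAA in 11.5% and in 8 (18.2%). A match of this length is a description of the letters and not of a bound site.

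COL4A1, the alpha 1 chain of the type IV network present in nearly all basement membranes, stood at 102 and 108 CPM untreated, 198 and 202 at 48 h and 193 and 184 at 72 h of CHIR99021. Its induced values went from 83.8 and 98.1 CPM to 174 and 157 at 48 h and 193 and 166 at 72 h. With Wnt3a it went from 63.7 and 84.1 CPM to 163 at 72 h, 258 and 257 at 96 h and 418 and 304 at 120 h. In each arm the late libraries lay above the untreated ones without overlap. The changes were 0.93 ± 0.13 (adjusted p = 6.1e-07) at 48 h of CHIR99021, 0.97 ± 0.13 (9.1e-07) at 72 h of induction and 2.26 ± 0.13 (7.5e-14) at 120 h of Wnt3a, all in edgeR. COL4A2, the alpha 2 chain that pairs with it, stood at 105 and 119 CPM untreated, 278 and 276 at 48 h and 223 and 203 at 72 h of CHIR99021. Its induced values were 95.6 and 106 CPM at 0 h and 293 and 242 at 72 h, and its Wnt3a values 69.2 and 91.7 at 0 h and 237 and 187 at 120 h. The edgeR changes were 1.30 ± 0.13 (1.2e-09), 1.40 ± 0.13 (1.0e-09) and 1.37 ± 0.13 (1.9e-09) in the same order. The COL4A2 changes thus lay between 1.30 and 1.40, whereas the value for COL4A1 was largest with Wnt3a; these differences between arms were not tested.

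The ratio of COL4A2 to COL4A1 counts, which does not depend on library scaling, was 1.03 to 1.14 in the 6 untreated libraries. From 48 h onward it was 1.10 to 1.40 in the 4 CHIR99021 libraries and 1.16 to 1.52 in the 4 induced libraries, and 0.566 to 0.866 in the 7 Wnt3a libraries. The Wnt3a range did not overlap with either of the others or with the untreated libraries. The arms were run as separate cultures, and this difference between them was not tested. Over the 37 libraries the 2 genes correlated with Pearson's r = 0.864 and Spearman's rho = 0.905, a description of libraries that share treatments and times.

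COL4A5 and COL4A6, chains of the basement membranes of kidney, skin and smooth muscle, parted in the CHIR99021 and Wnt3a arms, in opposite directions. COL4A5 went from 56.1 and 56.5 CPM to 125 and 118 at 48 h of CHIR99021, from 55.3 and 51.0 to 122 and 103 at 72 h of induction, and from 33.0 and 41.8 to 153 and 153 at 96 h of Wnt3a. The edgeR changes were 1.11 ± 0.14 (adjusted p = 1.8e-07), 1.09 ± 0.15 (1.3e-06) and 1.99 ± 0.15 (1.0e-11). COL4A6 stood at 59.0 and 64.0 CPM untreated and at 57.2 and 61.9 at 48 h and 67.7 and 67.4 at 72 h of CHIR99021, where it was not called (changes of -0.05 ± 0.13 and 0.13 ± 0.13). At 8 h of CHIR99021 it was 47.3 and 48.9 CPM and called lower (-0.35 ± 0.13, adjusted p = 0.044 in edgeR), a call lost without any 1 of the 4 libraries. With induction COL4A6 went from 43.8 and 53.4 CPM to 98.1 and 85.8 at 72 h, a change of 0.90 ± 0.14 (5.2e-06 in edgeR). With Wnt3a it rose from 25.5 and 41.2 CPM to 159 at 72 h, 257 and 254 at 96 h and 197 and 215 at 120 h, and its change of 2.84 ± 0.14 at 96 h (8.9e-16 in edgeR) was the largest of any type IV gene at that time. The ratio of COL4A5 to COL4A6 counts was 0.884 to 1.29 untreated, 1.47 to 2.18 in CHIR99021 libraries from 48 h onward, above the untreated range. In the induced libraries from 48 h onward it was 1.21 to 1.35, overlapping the untreated range. With Wnt3a it was 1.42 and 1.12 at 48 h and 0.737 at 72 h. It was 0.595 and 0.603 at 96 h and 0.635 and 0.726 at 120 h of Wnt3a. The Wnt3a libraries of 72 h and later thus lay below the untreated range, as did those of 8 h (0.798 and 0.656). The CHIR99021 change of COL4A6 lay below its induced change at 48 h (difference of changes -0.90 ± 0.19, adjusted p = 0.00074 in edgeR). The same difference at 72 h was -0.77 ± 0.19 (0.0085) and became -0.67 (0.053) without 72 h replicate 1 of the induced line. COL4A3 and COL4A4, chains of the glomerular network, averaged at most 2.50 and 2.66 CPM in any group.

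COL18A1, the type XVIII chain whose C-terminal fragment is endostatin, had the highest untreated median of all members. It stood at 355 and 367 CPM untreated, 637 and 641 at 48 h and 479 and 413 at 72 h of CHIR99021, at 213 and 253 uninduced and 561 and 577 at 72 h of induction, and at 265 and 336 untreated and 762 and 573 at 120 h of Wnt3a. The rises of 0.82 ± 0.14 (adjusted p = 1.7e-05), 1.28 ± 0.14 (2.4e-08) and 1.14 ± 0.14 (1.9e-07) were called in edgeR, while the 72 h value with CHIR99021 was not (0.31 ± 0.14, adjusted p = 0.11). At 72 h the change was smaller with CHIR99021 than with induction by -0.98 ± 0.20 (0.0015 in edgeR). The uninduced line also started lower than the untreated CHIR99021-arm cultures, by -0.63 ± 0.14 (0.0019), a call at its threshold without the uninduced replicate 1 (-0.51, adjusted p = 0.050). COL18A1-AS1 and COL18A1-AS2, transcripts named as antisense to COL18A1, were also called higher at 120 h of Wnt3a, at means of 3.60 and 1.34 CPM. The library kit keeps strand, but the strand setting of the counting is not given in the sources used here, so reads of the antisense genes and of COL18A1 may not be told apart. Their levels are small beside those of COL18A1.

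**Figure D2:**
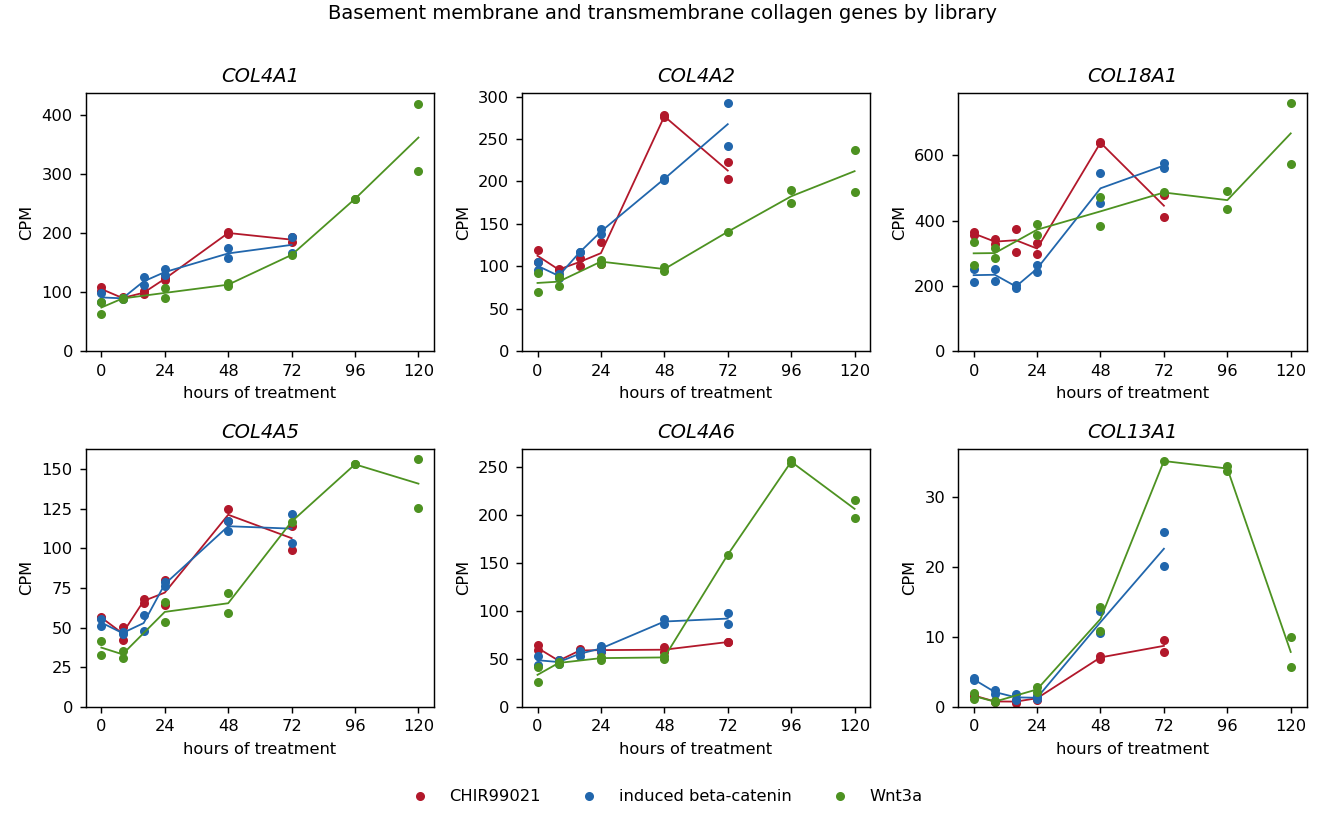
TMM-scaled CPM (y axis, from 0) against hours of treatment (x axis) for COL4A1, COL4A2, COL18A1, COL4A5, COL4A6 and COL13A1 in the 3 arms, with a point for each library and a line through the group means. COL4A6 is at 59.0 and 64.0 CPM untreated, 47.3 and 48.9 at 8 h and 67.7 and 67.4 at 72 h of CHIR99021, and reaches 257 and 254 CPM at 96 h of Wnt3a.

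Most of the called fibrillar genes were higher at 48 h of CHIR99021, at 72 h of induction and late with Wnt3a. Of the 11 fibrillar genes, 6 were called higher and 3 lower at 48 h of CHIR99021, 5 and 3 at 72 h of induction and 6 and 0 at 96 h and at 120 h of Wnt3a. The shares of all genes called at these times were 33.9%, 27.3%, 39.9% and 27.9% in the same order. Summed, the fibrillar genes went from 235 ± 4.99 CPM (SD, n = 2) to 813 ± 30.1 at 48 h of CHIR99021 and 483 ± 61.6 at 72 h. The 6 fibroblast markers summed to 10.4 and 10.9 CPM untreated and to 47.3 and 49.2 at 48 h of CHIR99021, a rise led by PDGFRA. PDGFRA went from a mean of 1.79 to 38.7 CPM and PDGFRB from 6.25 to 7.38. TWIST2 went from 1.43 to 1.38 CPM and POSTN from 1.02 to 0.490, and LUM was at 0 counts at 48 h. With induction the 6 markers summed to 12.3 and 17.4 CPM at 0 h and to 55.3 and 59.7 at 72 h. At 72 h PDGFRA averaged 37.3 CPM and PDGFRB 17.5, and LUM and POSTN were at 0 counts. PDGFRA is also a gene of early mesoderm, and the part of such cells in the fibrillar rise was not tested.

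COL1A2 was the most abundant fibrillar gene at 48 and 72 h of CHIR99021 and of induction. It stood at 93.6 and 94.2 CPM untreated, 148 and 177 at 16 h, 175 and 179 at 24 h, 366 and 362 at 48 h and 338 and 288 at 72 h of CHIR99021. With induction it went from 109 and 125 CPM to 198 and 196 at 24 h, 292 and 281 at 48 h and 432 and 404 at 72 h. With Wnt3a it went from 73.1 and 86.7 CPM to 161 and 177 at 48 h and 189 at 72 h, and back to 79.8 and 106 at 120 h. The edgeR changes were 1.96 ± 0.13 at 48 h of CHIR99021 (adjusted p = 2.8e-13), 1.83 ± 0.13 at 72 h of induction (4.2e-12) and 1.22 ± 0.15 at 72 h of Wnt3a (5.8e-07). COL1A2 was already higher at 16 h of CHIR99021, by 0.79 ± 0.13 (3.9e-05 in edgeR), a call that held with any 1 library left out.

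Its partner COL1A1 was lower or not called at the same times. COL1A1 stood at 34.1 and 27.4 CPM untreated, 22.2 and 36.7 at 48 h and 15.1 and 14.3 at 72 h of CHIR99021, a change of -1.06 ± 0.24 at 72 h (adjusted p = 0.0017 in edgeR). In the induced line it went from 56.8 and 54.5 CPM to 16.8 and 15.8 at 48 h (-1.76 ± 0.26, 1.2e-05) and stood at 34.5 and 29.1 at 72 h. With Wnt3a it went from 52.4 and 37.8 CPM to 18.5 and 21.0 at 48 h and 14.1 at 72 h (-1.63 ± 0.32, 0.00055), and was back at 40.4 and 46.5 at 120 h. The ratio of COL1A2 to COL1A1 counts was 1.40 to 3.44 in untreated libraries, 9.88 to 22.3 in CHIR99021 libraries and 12.5 to 17.8 in induced libraries from 48 h onward, with no overlap. With Wnt3a the ratio was 8.69 and 8.47 at 48 h and 13.4 at 72 h, above the untreated range. At 96 and 120 h of Wnt3a it was 1.98 to 2.77, within that range. Type I collagen is usually assembled with more alpha 1 than alpha 2 chains. Over 37 libraries the genes had r = -0.467 and rho = -0.419.

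**Figure D3:**
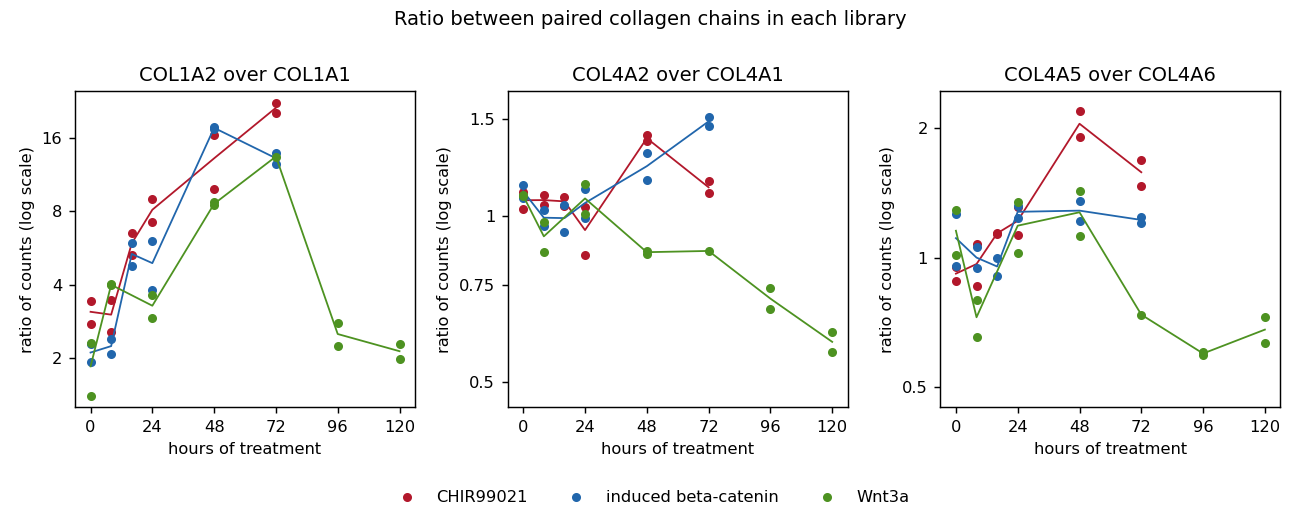
Ratio of counts of COL1A2 to COL1A1, COL4A2 to COL4A1 and COL4A5 to COL4A6 (y axis, log scale) against hours of treatment (x axis) in the 3 arms, with a point for each library and a line through the means. The COL1A2 ratio leaves its untreated range of 1.40 to 3.44 in all 3 arms and is back within it at 96 and 120 h of Wnt3a. The COL4A2 ratio falls to between 0.566 and 0.866 in the Wnt3a arm from 48 h onward.

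The type V chains COL5A1 and COL5A2, which start collagen fibrils, and the type XI chain COL11A1 had their lowest CHIR99021 values in the first day and their highest at 48 h. COL5A2 stood at 34.6 and 35.1 CPM untreated, 10.3 and 9.33 at 24 h, 263 and 192 at 48 h and 42.6 and 27.1 at 72 h of CHIR99021. Its edgeR changes were -1.84 ± 0.25 at 24 h (adjusted p = 5.5e-06) and 2.71 ± 0.23 at 48 h (6.4e-10), and at 72 h it was not called (0.02 ± 0.23). In the induced line COL5A2 stood at 10.3 and 16.5 CPM at 0 h, 12.3 and 13.5 at 48 h and 76.9 and 61.9 at 72 h, a change of 2.29 ± 0.27 at 72 h (2.4e-07). The difference between the changes in these arms was 2.85 ± 0.37 at 48 h (3.2e-06) and -2.27 ± 0.35 at 72 h (0.00014 in edgeR). The high libraries thus belonged to 48 h with CHIR99021 and to 72 h with induction. With Wnt3a COL5A2 went from 23.3 and 24.7 CPM to 112 and 110 at 96 h (2.19 ± 0.25, 7.6e-08).

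COL5A1 stood at 11.0 and 12.2 CPM untreated and 54.0 and 59.8 at 48 h of CHIR99021 (2.29 ± 0.22, adjusted p = 1.5e-09 in edgeR). Induced cultures went from 22.6 and 19.3 CPM to 8.28 and 6.09 at 16 h (-1.47 ± 0.25, 0.00016) and to 51.5 and 68.2 at 72 h (1.53 ± 0.24, 8.6e-06). With Wnt3a it went from 9.06 and 13.1 CPM to 104 at 72 h and 97.4 and 93.0 at 96 h (2.99 ± 0.24, 6.4e-11). COL11A1 stood at 18.0 and 17.6 CPM untreated, 55.9 and 52.7 at 48 h and 21.9 and 17.3 at 72 h of CHIR99021. Its change of 1.61 ± 0.20 at 48 h (1.0e-07) differed from that in the induced line by 2.38 ± 0.30 (6.1e-07 in edgeR). In the induced line COL11A1 fell from 29.4 and 26.5 CPM to 10.2 and 13.3 at 8 h (-1.27 ± 0.22, 8.4e-05) and stood at 32.8 and 29.9 at 72 h. Both CHIR99021 libraries of 48 h lay above every other library of this gene.

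COL3A1, the type III chain whose gene neighbours COL5A2 on chromosome 2, had almost no reads before treatment. It stood at 0.654 and 0.592 CPM untreated, 15.4 and 21.7 at 48 h and 1.77 and 0.465 at 72 h of CHIR99021, with changes of 4.89 ± 0.77 at 48 h against 0 h (adjusted p = 3.1e-05) and -3.88 ± 0.71 at 72 h against 48 h (0.00066 in edgeR). The induced line held 0 counts at 0 h and 29 at 72 h, at least 5.37-fold higher when 3 counts are taken as the floor of the untreated group (adjusted p = 0.040 in edgeR). That call was lost without either uninduced library (adjusted p = 0.088 and 0.31) and without 72 h replicate 1 (0.18). At 120 h of Wnt3a it stood at 0.721 and 6.92 CPM, and the call (5.22 ± 1.04, 0.00066) was lost without untreated replicate 2 (adjusted p = 0.12) and came to 2.87 without 120 h replicate 2.

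Among the other fibrillar chains, COL27A1 rose from 16.8 and 14.0 to 30.4 and 33.2 CPM at 48 h of CHIR99021 (1.05 ± 0.23, adjusted p = 0.00063 in edgeR). The chains COL11A2 and COL24A1 fell. COL11A2, a type XI chain, went from 1.96 and 2.43 CPM to 0.0687 and 0.218 at 48 h of CHIR99021 (-4.04 ± 0.56, 9.7e-07) and from 4.12 and 3.74 to 0.223 and 0.633 at 72 h of induction (-3.26 ± 0.56, 3.7e-05). COL24A1 went from 2.11 and 1.30 CPM to 0.0344 and 0.163 at 48 h of CHIR99021 (-4.20 ± 0.80, 9.7e-05 in edgeR). The low values rest on few counts, so the sizes of these falls are uncertain. At 48 h of CHIR99021 there were 2 and 4 counts of COL11A2 and 1 and 3 of COL24A1. At 72 h of induction there were 3 and 6 of COL11A2. The type XI chains COL11A1 and COL11A2 were thus called in opposite directions at 48 h of CHIR99021.

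**Figure D4:**
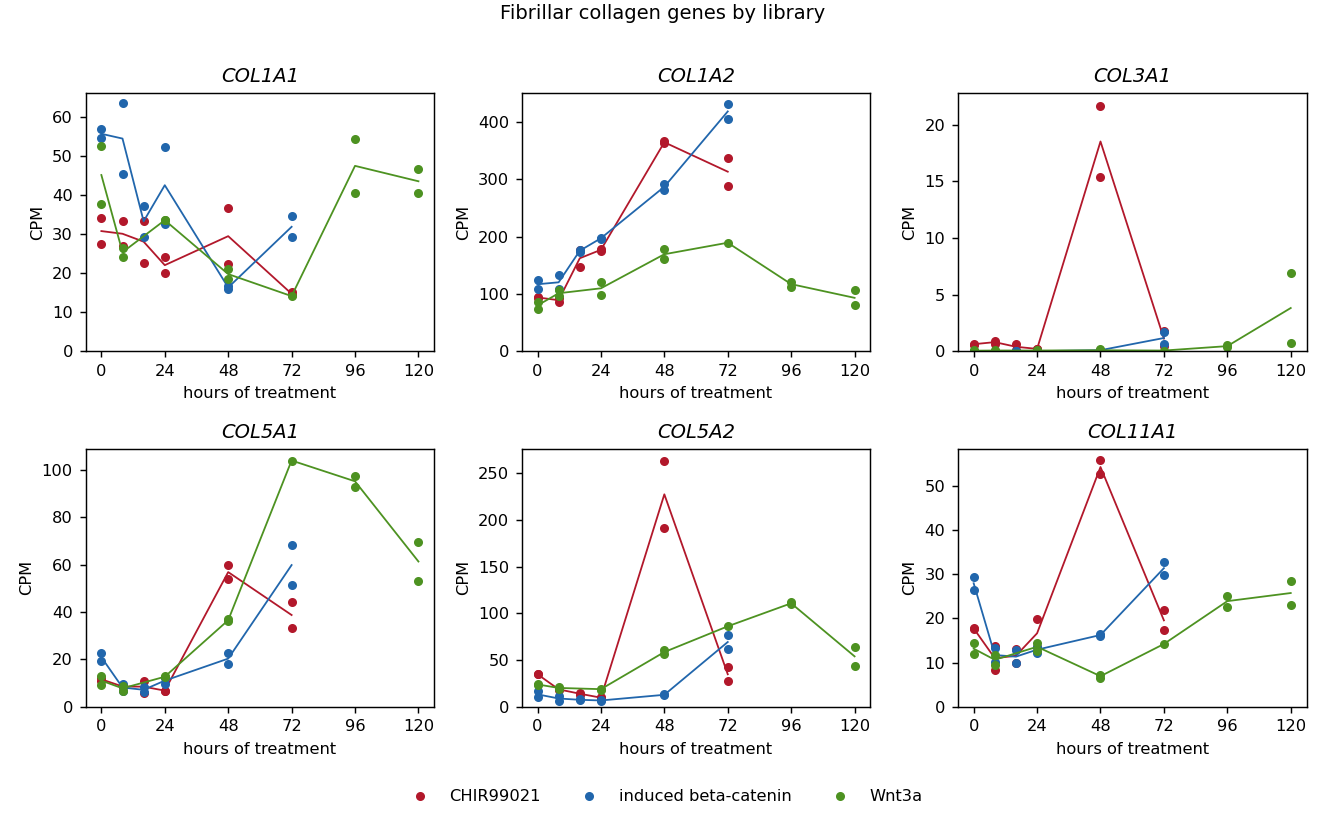
TMM-scaled CPM (y axis, from 0) against hours of treatment (x axis) for COL1A1, COL1A2, COL3A1, COL5A1, COL5A2 and COL11A1 in the 3 arms, with a point for each library and a line through the group means. COL5A2, COL3A1 and COL11A1 peak at 48 h of CHIR99021 (263 and 192, 15.4 and 21.7, and 55.9 and 52.7 CPM) and are lower at 72 h.

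Type II collagen (COL2A1) and type IX collagen (COL9A1, COL9A2 and COL9A3), partners in cartilage fibrils, differed by arm. COL2A1 stood at 21.7 and 19.7 CPM untreated, 87.1 at 72 h, 151 and 131 at 96 h and 272 and 210 at 120 h of Wnt3a, a change of 3.57 ± 0.20 at 120 h (adjusted p = 2.7e-14 in edgeR). In the induced line it fell from a mean of 20.6 CPM to 7.14 and 8.45 at 8 h (-1.42 ± 0.22, 1.9e-05) and rose to 58.8 and 61.1 at 72 h (1.55 ± 0.20, 5.0e-07). With CHIR99021 it stood at 24.1 and 25.1 CPM untreated, 9.76 and 13.4 at 24 h (-1.06 ± 0.19, 0.00016) and 35.0 and 32.9 at 72 h, which was not called (adjusted p = 0.055 in edgeR). With Wnt3a at 24 h it stood at 14.5 and 13.8 CPM and was not called (adjusted p = 0.060).

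COL9A2 was the member that changed most with Wnt3a among those above 10 CPM. It stood at 2.26 and 2.23 CPM untreated, 27.5 at 72 h, 46.3 and 63.5 at 96 h and 124 and 146 at 120 h, a change of 5.91 ± 0.33 (adjusted p = 8.2e-14 in edgeR). It also rose with CHIR99021 from 2.41 and 2.04 to 10.2 and 15.2 CPM at 48 h (2.51 ± 0.29, 5.8e-08), and in the induced line from 2.35 and 1.60 to 15.1 and 17.4 at 72 h (3.14 ± 0.39, 3.8e-07). COL9A3 went from 26.5 and 24.7 to 101 and 108 CPM at 96 h of Wnt3a (2.05 ± 0.17, 9.2e-11), but fell from 47.7 and 46.2 to 21.2 and 21.3 at 72 h of CHIR99021 (-1.14 ± 0.16, 2.1e-06). COL9A1 was called at no time with Wnt3a. It fell with CHIR99021, from 12.8 and 15.7 to 2.99 and 4.41 CPM at 48 h (-1.97 ± 0.20, 3.7e-09), and rose with induction, from 10.0 and 15.8 to 34.1 and 27.4 CPM at 48 h (1.20 ± 0.20, 4.3e-05). The difference between those changes, -3.17 ± 0.29 at 48 h (2.1e-09) and -2.49 ± 0.28 at 72 h (6.6e-07 in edgeR), was opposite in sign between the arms and held without any single library. At 72 h the change of COL9A2 was also smaller with CHIR99021 than with induction (-2.32 ± 0.52, 0.0048), a call lost without uninduced replicate 2 (-1.96, adjusted p = 0.11).

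Markers of cartilage and notochord were few and low in the Wnt3a cultures with high COL2A1 and COL9A2. SOX9, which drives COL2A1 in chondrocytes, averaged 4.25 CPM untreated and 1.61 at 120 h of Wnt3a, and ACAN 0.940 and 1.44. Their list of 5 genes summed to 4.53 and 7.12 CPM untreated and to 3.43 and 5.31 at 120 h. SHH, a notochord gene that other embryonic tissues also express, averaged 0.0147 CPM untreated, 2.27 at 48 h, 1.01 at 72 h and 0.708 at 120 h. The endoderm genes reached 174 and 266 CPM at the same time, and their part in these collagen changes was not tested.

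Of the 5 type VI genes, COL6A1 and COL6A2 were called higher in the Wnt3a arm, and COL6A3, COL6A5 and COL6A6 were called at no time there. COL6A1 and COL6A2, neighbours on chromosome 21 whose chains join in the same filament, were near each other in course. COL6A1 stood at 99.6 and 145 CPM untreated, 340 and 436 at 48 h, 581 at 72 h, 631 and 448 at 96 h and 223 and 239 at 120 h of Wnt3a, with a change of 2.11 ± 0.17 at 96 h (adjusted p = 1.3e-10 in edgeR). COL6A2 stood at 57.6 and 90.8 CPM untreated, 182 and 225 at 48 h, 292 at 72 h, 442 and 347 at 96 h and 117 and 135 at 120 h, with a change of 2.36 ± 0.16 at 96 h (1.5e-12 in edgeR). For both genes the libraries at 48, 72 and 96 h lay above every untreated library, and both genes were lower again at 120 h. At 120 h their changes were still called, at 0.89 ± 0.17 (0.00019) for COL6A1 and 0.71 ± 0.16 (0.00088) for COL6A2, the latter coming to 1.13 without untreated replicate 2.

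In the CHIR99021 and induced arms neither gene was called higher at any time. COL6A2 was lower at 8 h of CHIR99021 (-0.55 ± 0.15, adjusted p = 0.0097 in edgeR), and COL6A1 at 16 h of CHIR99021 (-0.49 ± 0.17, 0.043) and of induction (-0.67 ± 0.17, 0.0092), calls that were each lost without at least 1 of the libraries. COL6A1 was 133 and 126 CPM untreated and 148 and 190 at 48 h of CHIR99021 (0.38 ± 0.17, adjusted p = 0.075 in edgeR), and COL6A2 71.6 and 79.5 untreated and 70.5 and 82.6 at 48 h (0.02 ± 0.15). COL6A1 was 166 and 180 CPM uninduced and 170 and 212 at 72 h of induction (0.14 ± 0.17), and COL6A2 87.9 and 120 uninduced and 95.7 and 103 at 72 h. The difference between the Wnt3a arm and the others was not tested for these genes. Over 37 libraries COL6A1 and COL6A2 had r = 0.939 and rho = 0.871. COL6A3, the long chain of the same filament, was far below them, at 6.64 and 7.97 CPM untreated and 2.10 and 1.47 at 72 h of CHIR99021.

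**Figure D5:**
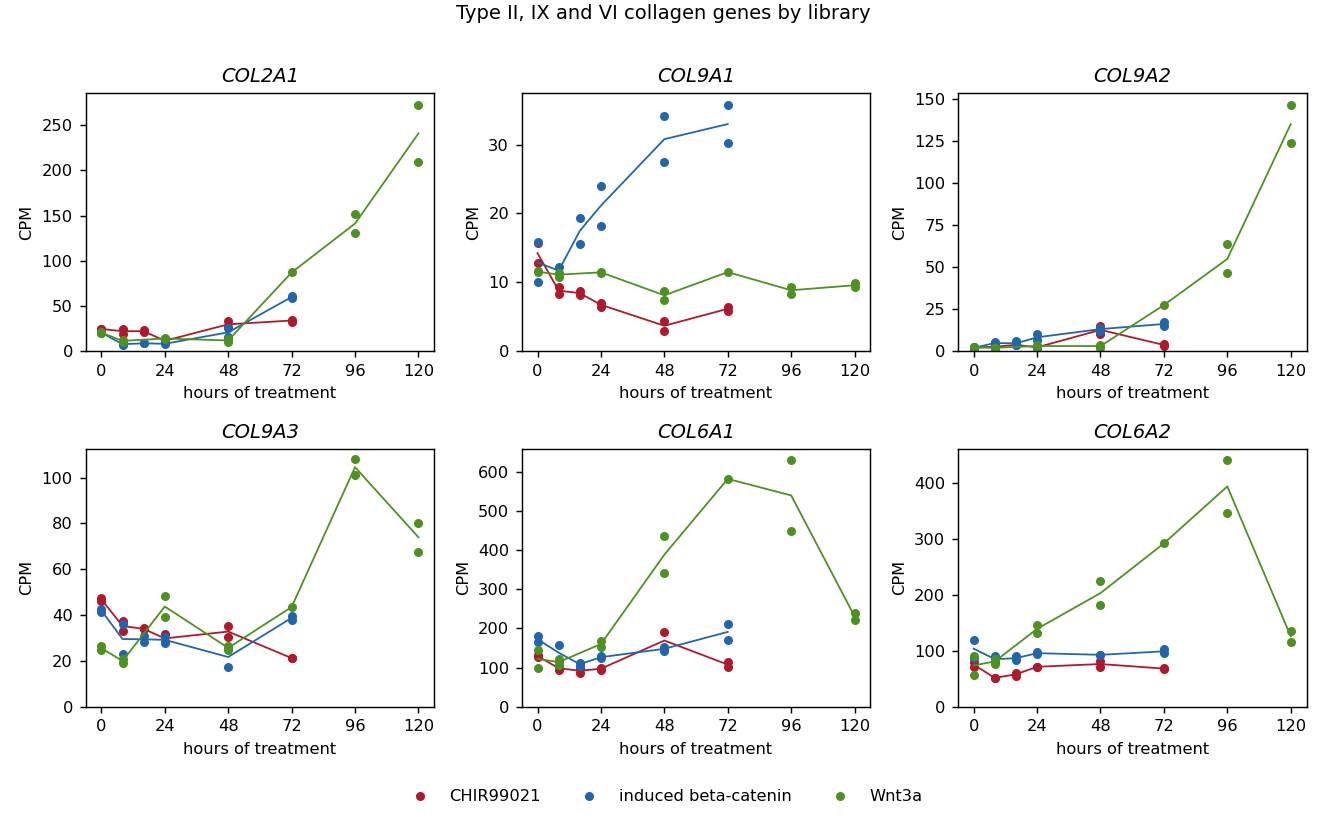
TMM-scaled CPM (y axis, from 0) against hours of treatment (x axis) for COL2A1, COL9A1, COL9A2, COL9A3, COL6A1 and COL6A2 in the 3 arms, with a point for each library and a line through the group means. COL6A1 and COL6A2 peak at 72 to 96 h of Wnt3a, COL2A1 and COL9A2 are highest at 120 h, and COL9A1 falls with CHIR99021 and rises with induction.

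At 48 h of CHIR99021, 1 of the 10 fibril-associated genes, type IX included, was called higher (COL9A2) and 7 lower. Of all genes, 15.7% were higher and 18.1% lower at that time. The calls of COL9A3, COL12A1, COL16A1 and COL22A1 at that time were each lost without at least 1 of the libraries (the highest adjusted p were 0.13, 0.52, 0.36 and 0.074 in edgeR). COL14A1, which binds the surface of type I fibrils, first rose and then fell with CHIR99021: 32.4 and 33.6 CPM untreated, 54.4 and 56.1 at 24 h (0.74 ± 0.17, adjusted p = 0.0025), 12.6 and 10.6 at 48 h (-1.50 ± 0.18, 6.0e-08 in edgeR) and 28.2 and 31.2 at 72 h. With Wnt3a it fell throughout the late course, from 37.5 and 26.9 to 8.70 and 9.58 CPM at 48 h and 4.58 and 2.64 at 120 h (-3.08 ± 0.22, 4.2e-12). It was the deepest fall of any collagen gene above 10 CPM in that arm at that time. COL16A1 went from 13.2 and 10.5 to 4.45 and 3.27 CPM at 48 h of induction (-1.55 ± 0.32, 0.00054) and from 11.0 and 8.72 to 4.16 and 2.88 at 96 h of Wnt3a (-1.42 ± 0.30, 0.00033 in edgeR).

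The membrane-anchored COL13A1 rose late in all 3 arms. It stood at 1.61 and 1.66 CPM untreated and 9.64 and 7.83 at 72 h of CHIR99021 (2.43 ± 0.29, adjusted p = 9.8e-08), and at 3.82 and 4.07 uninduced and 20.2 and 25.1 at 72 h of induction (2.50 ± 0.31, 2.5e-07). With Wnt3a it went from 1.94 and 1.16 CPM to 35.2 at 72 h and 33.8 and 34.5 at 96 h (4.76 ± 0.34, 3.1e-12 in edgeR), then to 10.0 and 5.71 at 120 h. COL23A1, of the same class, fell at 48 h in each arm: to 2.13 and 1.96 CPM from 4.73 and 5.06 with CHIR99021 (-1.25 ± 0.21, 1.5e-05), to 3.99 and 4.05 from 7.94 and 11.2 with induction (-1.30 ± 0.22, 4.3e-05) and to 2.07 and 1.94 from 4.85 and 7.22 with Wnt3a (-1.72 ± 0.23, 1.1e-06). With Wnt3a it then rose to 28.4 and 28.6 CPM at 96 h (2.12 ± 0.20, 7.4e-10 in edgeR). The 48 h and the 96 h values of the Wnt3a arm lay on opposite sides of its untreated libraries.

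COL26A1 and COL7A1 belong to none of these classes. COL26A1 fell from 47.9 and 53.7 to 19.8 and 24.1 CPM at 48 h of CHIR99021 (-1.22 ± 0.18, adjusted p = 3.4e-06) and was 24.7 and 36.2 uninduced and 32.8 and 38.8 at 48 h of induction. The changes differed by -1.40 ± 0.27 (0.00032 in edgeR). COL7A1, the anchoring fibril chain of skin, fell in the induced line from 15.6 and 12.8 to 3.84 and 5.03 CPM at 24 h (-1.63 ± 0.34, 0.0012) and was called at no time with CHIR99021, where it was 8.05 and 6.22 untreated and 10.1 and 8.76 at 24 h. The difference at 24 h was 2.03 ± 0.46 (0.0082 in edgeR) and became 1.85 (0.053) without the untreated CHIR99021-arm replicate 2.

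A few members that stayed under 10 CPM are described for the size of their change. COL6A6 was called at 72 h of induction on 42 counts against 2, a ratio of 11.7 with a counting interval of 3.03 to 99.5 at 95% confidence, which covers counting error only. That call was lost without uninduced replicate 2 (1.66, adjusted p = 0.37) and without 72 h replicate 2 (0.053). COL19A1, at or under 0.132 CPM in the untreated Wnt3a libraries, reached 4.91 and 3.07 CPM at 120 h of Wnt3a, the highest of its 19 groups, and was chosen here after its values were seen. COL5A3, a type V chain likewise chosen, averaged 1.4 CPM untreated and stood at 7.40 and 5.67 at 48 h, 7.62 at 72 h and 1.21 and 0.851 at 96 h of Wnt3a.

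CHIR99021 cultures at 72 h were compared with those at 48 h, since several members did not keep their 48 h level. Of the 44 members 8 were higher and 9 lower, with 13% of all genes called (7.51% higher and 5.49% lower). COL5A2 (-2.69 ± 0.23, adjusted p = 7.8e-09), COL9A2 (-1.69 ± 0.27, 5.8e-05), COL11A1 (-1.46 ± 0.20, 3.5e-06) and COL3A1 fell, and COL14A1 (1.35 ± 0.18, 2.9e-06 in edgeR) and COL23A1 (0.88 ± 0.21, 0.0045) rose. COL1A2 (-0.22 ± 0.13), COL4A1 (-0.08 ± 0.12) and COL13A1 (0.32 ± 0.26) were not called. The total of 17 came to 10 without either 48 h library and 11 without 72 h replicate 2. Other genes differed between these times as well: POU5F1 averaged 980 CPM untreated, 109 at 48 h and 388 at 72 h, and SOX2 159, 6.81 and 23.6, while the primitive streak sum was higher at 72 h. The part of cell composition in the collagen difference was not tested.

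The responses to CHIR99021 and to induced beta-catenin were compared by the difference between their changes, each against its own untreated cultures. At 24 h the CHIR99021 change minus the induced change was called above 0 for 3 members and below 0 for 2, with 4.95% of all genes called (1.65% above and 3.3% below). The 3 were COL11A1, COL12A1 and COL7A1, which were called lower with induction and not called with CHIR99021, and only 2 or 3 of the 5 calls were made whichever library was left out. At 48 h the counts were 6 and 6 with 16.5% of all genes called (5.95% and 10.6%), and at 72 h 1 and 7 with 7.2% (3.21% and 4%), the latter total coming to 5 without uninduced replicate 2. At 48 h the members with larger values for CHIR99021 were led by COL5A2, COL11A1, COL5A1 (2.29 ± 0.33, adjusted p = 7.8e-06) and COL1A1 (1.69 ± 0.35, 0.0011 in edgeR), all fibrillar; for COL1A1 this reflects values of -0.07 with CHIR99021 and -1.76 with induction. COL4A1, COL4A2 and COL4A5 were not called at any of the 3 times, and for COL4A1 at 48 h the difference was 0.07 ± 0.18. The comparison joins the agent with the line, since only the induced cultures carry the transgene and receive doxycycline.

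Untreated cultures of the arms also differed. The uninduced line had 8 members higher and 3 lower than the untreated CHIR99021-arm cultures, with 15.7% of all genes called (6.06% higher and 9.6% lower), a total that fell to between 3 and 5 whichever library was left out. COL5A2 was lower in the uninduced line, at 10.3 and 16.5 CPM against 34.6 and 35.1 (-1.30 ± 0.27, adjusted p = 0.0011 in edgeR). Untreated CHIR99021-arm cultures had 6 members higher and 0 lower than those of the Wnt3a arm, with 10.9% of all genes called (6.76% higher and 4.12% lower), and 2 without CHIR99021-arm replicate 2 or without Wnt3a-arm replicate 1. COL4A1, COL4A2, COL4A5 and COL4A6 were 4 of the 6, so that the type IV rise with Wnt3a started from a lower level. COL4A1, COL4A2 and COL4A5 each lost this call without Wnt3a-arm replicate 1 (adjusted p = 0.20, 0.25 and 0.14 in edgeR).

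The genes that process and receive collagen were followed as fixed lists. At 48 h of CHIR99021, 15 of the 25 genes of chain modification and folding were called higher and 3 lower, whereas at 48 h of induction 4 were higher and 8 lower, against 33.9% and 21.3% of all genes called in either direction. The difference of changes was called above 0 in 14 and below 0 in 2, against 5.95% and 10.6% of all genes. P4HA1, a prolyl hydroxylase subunit, stood at 183 and 177 CPM untreated and 314 and 297 at 48 h of CHIR99021, and at 229 and 328 uninduced and 96.9 and 78.5 at 48 h of induction. The edgeR changes were 0.76 ± 0.17 (adjusted p = 0.00066) and -1.67 ± 0.18 (2.1e-08), with a difference of 2.43 ± 0.24 (2.0e-08). P4HA2, another such subunit, and the lysyl hydroxylase PLOD2 moved the same ways, with changes of 1.35 ± 0.17 and 1.12 ± 0.19 with CHIR99021 and -1.26 ± 0.19 and -1.36 ± 0.20 with induction. With CHIR99021 all 3 were lower again at 72 h than at 48 h, by -1.23 ± 0.17 (6.4e-06 in edgeR) for P4HA1. FKBP7, a chaperone-like isomerase, rose by 2.11 ± 0.30 at 48 h of CHIR99021. SERPINH1, the collagen chaperone HSP47, was 315 and 332 CPM untreated and 238 and 261 at 48 h (-0.37 ± 0.13, adjusted p = 0.029), a call lost without any 1 of the 4 libraries (adjusted p = 0.050 to 0.15 in edgeR).

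Of the 15 genes of propeptide removal and crosslinking, 5 were higher and 2 lower at 48 h of CHIR99021, when 15.7% of all genes were higher and 18.1% lower. TLL2, a metalloproteinase of the tolloid family, had means of 4.10 CPM untreated and 83.9 at 48 h (4.35 ± 0.33, adjusted p = 2.5e-11), BMP1, the procollagen C-proteinase of the same family, rose by 1.66 ± 0.25 and its enhancer PCOLCE2 by 1.87 ± 0.19, and PCOLCE fell by 0.99 in edgeR. Of 15 matrix partners, 7 were higher and 0 lower, among them BGN (2.51 ± 0.50), FBN2 (2.40 ± 0.16) and FBN1 (2.29 ± 0.19), and 11 were higher and 1 lower at 96 h of Wnt3a, when 18.8% of all genes were higher and 21% lower. FN1, fibronectin, went from 60.2 and 60.7 to 998 and 980 CPM at 120 h of Wnt3a (4.03 ± 0.18, 2.2e-16 in edgeR). At 48 h of induction FN1 and FBN2 were instead called lower. Without the 4 doubted libraries, which leaves a single library in each of these groups, neither call held (-0.41 for FN1 and -0.39 for FBN2). The FBN2 call was also lost without uninduced replicate 1 (-0.47) or without induced 48 h replicate 2 (-0.47). Of 14 tested genes of collagen breakdown, 8 were higher and 4 lower at 48 h of CHIR99021, led by the gelatinase MMP2, which rose from 32.2 and 33.4 to 261 and 269 CPM with CHIR99021 (3.01 ± 0.16, 8.7e-16) and from 20.3 and 20.9 to 190 and 245 with induction (3.39 ± 0.18, 3.0e-15). CTSB (2.20 ± 0.12) and MMP14 (1.98 ± 0.12) rose and MMP15 fell by 2.52. Of 10 receptors, 4 were called at 48 h of CHIR99021, a share near the 33.9% of all genes: 2 rose (MRC2, 2.20 ± 0.30, and DDR2, 2.02 ± 0.37) and 2 fell (ITGA2, -3.19 ± 0.33, and DDR1, -1.49 ± 0.14), so that the discoidin receptors DDR1 and DDR2 moved in opposite directions.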

How the data were processed

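The deposited table holds estimated counts per gene, made by the authors with kallisto 0.43.0 per the submitters' processing notes. The sources used here do not name the build, the annotation, the strand setting or how transcripts were summed. Libraries were TruSeq Stranded Total RNA, per the labels. Each column proved to be estimated counts times 1 constant (0.265 to 6.58), which was divided out before rounding to whole counts (57.5% to 81.3% of values up to 20 counts were then whole within 0.1). The tests used edgeR 4.0.16 in R 4.3.3: TMM scaling, a filter on low counts by group (24304 of 43412 rows), 1 quasi-likelihood fit of 19 group means (18 residual degrees of freedom), 22 comparisons and Benjamini-Hochberg adjustment over all genes tested in each. Wnt3a at 72 h counted as 1 library. On simulated data for CHIR99021 at 48 h over 24304 genes, 69 of 100 genes changed 2-fold and 98 of 100 changed 4-fold were recovered, and 6 unchanged genes were called. The members, lists and tests were chosen with earlier results of these data known. Members were described in full where a group of the CHIR99021, induced or untreated Wnt3a cultures averaged at least 10 CPM (COL23A1, which did so only in treated Wnt3a cultures, was described as well), and others by name where called at 48 or 72 h of CHIR99021 or 72 h of induction with an absolute log2 change of at least 2; pathway genes were the 3 called per list and direction with the largest change at 48 h of CHIR99021, at 5 CPM or more in the higher group. Others named were chosen after their values were seen, P4HA1 and FN1 among them. Alternatives were DESeq2 1.42.0 scaling and test, no filter, a replicate block, fewer libraries and the columns as deposited; those for pathway genes were added after seeing the data.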

Additional observations from a re-analysis of the deposited data

Results flagged for a closer look

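The change with CHIR99021 and the change with induced beta-catenin, each against its own untreated cultures, differed in edgeR's test of the difference for 5 members at 24 h, 12 at 48 h and 8 at 72 h; values are the CHIR99021 change minus the induced change on the log2 scale. At 24 h the differences were 1.03 for COL11A1, 2.52 for COL12A1, 2.03 for COL7A1, -1.73 for COL9A1 and -2.00 for COL9A2. Of these, COL9A1 alone kept its call whichever library was left out. At 48 h they were positive for COL5A2 (2.85), COL11A1 (2.38), COL5A1 (2.29), COL1A1 (1.69), COL7A1 (1.37) and COL1A2 (0.67). They were negative at 48 h for COL24A1 (-3.63), COL9A1 (-3.17), COL21A1 (-2.15), COL26A1 (-1.40), COL14A1 (-0.91) and COL4A6 (-0.90). The COL1A2 call was lost without uninduced replicate 2 (0.56, adjusted p = 0.078), and that of COL14A1 without CHIR99021 48 h replicate 2 (-0.80, 0.063) or without induced 48 h replicate 1 (-0.82, 0.056). These are examples, and other calls at 48 h were also lost when a library was left out. At 72 h the differences were 1.93 for COL5A3 and negative for COL9A1 (-2.49), COL9A2 (-2.32), COL5A2 (-2.27), COL2A1 (-1.08), COL9A3 (-1.02), COL18A1 (-0.98) and COL4A6 (-0.77). The COL2A1 call at 72 h was lost without uninduced replicate 2 (-1.03, adjusted p = 0.071), and that of COL5A3 without any 1 of 4 libraries. Groups of 2 libraries are too small for a test of single outlying samples.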

How the results depend on the processing

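Of the 306 calls of a collagen gene in a comparison, 302 were kept with DESeq2 size factors, 286 without the filter, 293 on the columns as deposited, 253 without the 4 doubted libraries and 171 with any 1 library left out; at 48 h and later the last number was 129 of 170, and at 8 to 24 h 20 of 77. Without the doubted libraries the number of members called moved from 10 to 6 (induced 16 h), 16 to 4 (induced 24 h), 13 to 7 (Wnt3a 24 h), 11 to 7 and 6 to 2 (untreated arms) and 5 to 1 (24 h difference). Wnt3a at 8 h gave 2 in place of 1 with DESeq2's Wald test, as deposited and with only its arm fitted, and Wnt3a at 24 h gave 8 with only its arm fitted. With 1 library left out the ranges were 3 to 6 (CHIR99021 8 h), 4 to 6 (16 h), 10 to 13 (72 h against 48 h), 5 to 8, 5 to 7 and 8 to 10 (induced 8, 16 and 24 h), 0 to 1 and 6 to 11 (Wnt3a 8 and 24 h), 3 to 5 and 2 to 6 (untreated arms), and 2 to 3 and 5 to 8 (24 and 72 h differences). No collagen gene or count reversed under these alternatives. Replicate numbers did not pair the samples (correlations of -0.052 to 0.049); with a replicate block 29 members in place of 28 were called at 48 h of CHIR99021 and 14 in place of 16 at 24 h of induction. Depth limits members under 1 CPM most.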
